A study of Danio rerio with 6 samples.

Results

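Pigment cell genes were examined in NC cells of 24 hpf zebrafish embryos sorted by their Wnt response. The genes were chosen by 9 Ensembl identifiers, of the 32057 listed, given for mitfa, dct, tyr, tyrp1b, pmela, kita, slc24a5, gch2 and pnp4a. For 7 of the 9 identifiers, the gene table used here gave the same gene or its human orthologue. The other 2 identifiers were those of other genes. ENSDARG00000033735, given for pmela, was NCF1 in the table, and ENSDARG00000070453, given for gch2, was GCH1. The rows that the table names pmela (ENSDARG00000091298) and gch2 (ENSDARG00000099101) were therefore added, so that 11 rows are described, 9 of them pigment genes by name.

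All embryos carried Tg(7XTCF:nls-mCherry)ia5, a reporter of canonical Wnt signaling, and Tg(-7.2sox10:EGFP)ir937, which labels NC cells through a sox10 promoter fragment. EGFP+ cells with mCherry (high-Wnt) and with little or none (low-Wnt) were isolated by FACS, and each population has 3 bulk libraries. sox10 transgenes can also mark otic and oligodendrocyte lineage cells. No source used here states whether the replicates came from separate clutches, so p-values measure the spread between these libraries. Abundance is given as TPM, in which transcripts are corrected for their length and each library is scaled to 1000000, so levels of different genes can be compared but the files keep no sequencing depth. In bulk RNA from sorted cells, fewer cells of a type and less RNA per cell cannot be told apart.

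In zebrafish, NC cells give rise to 3 classes of pigment cells: black melanophores, yellow xanthophores and reflective iridophores. Melanophores depend on the transcription factor Mitfa and on the receptor tyrosine kinase Kita, and they make melanin from tyrosine inside melanosomes. Xanthophores make pteridines through GTP cyclohydrolase, and iridophores build purine crystals. Canonical Wnt signaling is known to favor pigment fates in the NC, with mitfa among the targets of TCF/LEF factors.

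Low-Wnt replicate 3 stood apart from the other libraries. At a cutoff of 1 TPM it had 9230 detected genes, compared with 13481 to 14417 in the other 5 libraries, and its 100 most abundant genes held 57.2% of the TPM, against 44.8% to 46.3%. Its TPM was the lowest for 70.2% of the 14163 genes tested with 6 libraries, and for all 11 rows described here. The results for the 11 rows are therefore given with and without it. The NC markers sox10, foxd3 and crestin were detected in all 6 libraries. sox10 lay between 239.6 and 343 TPM in the 5 other libraries and at 72.9 TPM in low-Wnt replicate 3.

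Mean TPM was higher in high-Wnt cells for all 9 pigment genes by name, but none passed the threshold when all 6 libraries were used. Most tested genes also had a log2 fold change (high-Wnt minus low-Wnt) above 0 with 6 libraries, with a median of 0.51. The shared direction therefore says little by itself. limma was applied to log2(TPM + 1) values, and a gene was called differentially expressed (DE) at an adjusted p-value (Benjamini-Hochberg, over all tested genes) below 0.05. With 6 libraries, 0 of the 9 identifiers and 0 of the 9 genes by name were DE in limma, where 0.367% of all tested genes were, 0.261% higher and 0.106% lower in high-Wnt cells. At an unadjusted p-value below 0.05, 6 of the 9 identifiers and 7 of the 9 genes by name were higher in high-Wnt cells, as were 11.7% of the tested genes. Without low-Wnt replicate 3, 6 of the 9 identifiers were DE, where 12.7% of the 15000 tested genes were. All 6 were higher in high-Wnt cells, where 7.17% of the tested genes were DE and higher and 5.57% DE and lower. By name, 7 of 9 were DE and higher: mitfa, kita, dct, tyr, pmela, slc24a5 and pnp4a. tyrp1b and gch2 did not pass. At an unadjusted p-value below 0.05 the number by name was 8 of 9 without low-Wnt replicate 3, beside 17% of the tested genes. The median log2 fold change of the 9 genes by name was 1.64 with 6 libraries, where that of all tested genes was 0.51, and 1.06 without low-Wnt replicate 3, where that of all tested genes was 0.05. For 8 of the 9 genes by name, TPM in every high-Wnt library exceeded that in every low-Wnt library, which held for 22.4% of the tested genes, and the reverse for 5.57%. These shares of the tested genes were 25.1% and 22.6% without low-Wnt replicate 3, and the number of pigment genes was again 8 of 9.

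**Figure D1:**
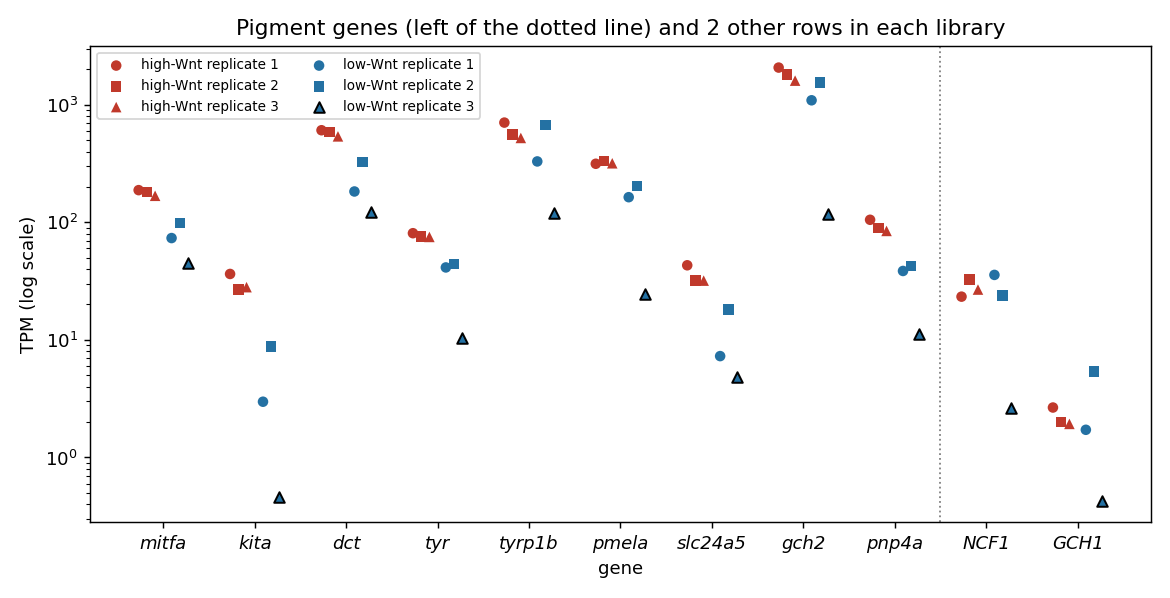
TPM (log scale) of the 9 pigment genes and, right of the dotted line, of NCF1 and GCH1, with 1 point per library, high-Wnt in red and low-Wnt in blue, and low-Wnt replicate 3 outlined. For mitfa the high-Wnt libraries lie between 168 and 188 TPM and the low-Wnt libraries between 45.5 and 98.2 TPM, and low-Wnt replicate 3 is the lowest point for every gene.

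mitfa encodes the transcription factor that specifies melanophores. High-Wnt replicates 1, 2 and 3 had 188, 181 and 168 TPM of mitfa (ENSDARG00000003732), while low-Wnt replicates 1, 2 and 3 had 73.5, 98.2 and 45.5 TPM. The populations did not overlap, and the low-Wnt libraries were spread more widely than the high-Wnt libraries. High-Wnt cells averaged 179 ± 10.0 TPM (SD, n = 3), which was 2.47 times the low-Wnt average of 72.4 ± 26.4 TPM (SD, n = 3). Without low-Wnt replicate 3 the low-Wnt mean was 85.8 ± 17.5 TPM (SD, n = 2) and the ratio 2.08. The log2 fold change (high-Wnt minus low-Wnt) was 1.36 (standard error, SE, of 0.34, limma adjusted p = 0.129) with 6 libraries and 1.06 (SE 0.15, limma adjusted p = 0.00663) without low-Wnt replicate 3. A second row that the table names MITF (ENSDARG00000037833) lay between 0 and 1.62 TPM, so nearly all of the MITF signal came from the mitfa row.

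kita (ENSDARG00000043317) encodes the receptor for Kit ligand, which melanophores need to migrate and survive. It was at 36.4, 26.8 and 28.1 TPM in the high-Wnt libraries and at 2.98, 8.78 and 0.46 TPM in the low-Wnt libraries. The populations did not overlap, and low-Wnt replicate 2 was 2.95 times low-Wnt replicate 1. The log2 fold change was 3.02 (SE 0.69, limma adjusted p = 0.110) with 6 libraries and 2.32 (SE 0.36, limma adjusted p = 0.00857) without low-Wnt replicate 3, where the ratio of mean TPM was 5.17. kita had the largest estimate of the 11 rows in both fits, although its 95% interval without low-Wnt replicate 3, from 1.49 to 3.14, overlapped those of dct, slc24a5 and pnp4a. The difference between genes was not tested.

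Of 3 melanin synthesis genes, dct and tyr were DE without low-Wnt replicate 3 and tyrp1b was not. tyr (ENSDARG00000039077) encodes tyrosinase, which starts melanin synthesis, and dct (ENSDARG00000006008) encodes dopachrome tautomerase, which acts on a later intermediate. dct was at 607, 585 and 538 TPM in high-Wnt cells and at 183, 327 and 123 TPM in low-Wnt cells. tyr was at 80.8, 75.8 and 75.1 TPM in high-Wnt cells and at 41.3, 44.4 and 10.4 TPM in low-Wnt cells. Neither gene had overlapping populations, and the 3 high-Wnt libraries lay close together for both, with a mean of 576 ± 35.1 TPM (SD, n = 3) for dct and 77.2 ± 3.09 TPM (SD, n = 3) for tyr. Without low-Wnt replicate 3, the log2 fold change was 1.23 for dct (SE 0.22, limma adjusted p = 0.0143) and 0.84 for tyr (SE 0.13, limma adjusted p = 0.00874). With 6 libraries it was 1.56 for dct (SE 0.35, limma adjusted p = 0.109) and 1.48 for tyr (SE 0.54, limma adjusted p = 0.277).

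tyrp1b (ENSDARG00000056151), which encodes a tyrosinase-related protein of the melanosome, did not separate the populations. It was at 705, 559.7 and 521 TPM in high-Wnt cells and at 329, 674 and 119.6 TPM in low-Wnt cells. Low-Wnt replicate 2 was above 2 of the 3 high-Wnt libraries and 2.05 times low-Wnt replicate 1. The log2 fold change was 0.98 (95% interval -0.28 to 2.24, limma adjusted p = 0.454) with 6 libraries and 0.32 (95% interval -0.32 to 0.97, limma adjusted p = 0.466) without low-Wnt replicate 3. The interval without that library still included the estimate for tyr, so these libraries do not show whether tyrp1b and tyr differ in their fold change.

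Among the described genes, pmela and slc24a5, which act in melanosome structure and transport, were both DE without low-Wnt replicate 3. pmela encodes the premelanosome protein, which forms the fibrils on which melanin is deposited, and slc24a5 (ENSDARG00000024771) encodes a cation exchanger needed for melanin formation and mutated in golden zebrafish. pmela (ENSDARG00000091298) was at 315, 332 and 318 TPM in high-Wnt cells and at 164, 204 and 24.5 TPM in low-Wnt cells. slc24a5 was at 43.1, 31.9 and 31.9 TPM in high-Wnt cells and at 7.28, 18.1 and 4.80 TPM in low-Wnt cells. For both genes every high-Wnt library was above every low-Wnt library, and the gap from the lowest high-Wnt library to low-Wnt replicate 2 was 110.1 TPM for pmela and 13.8 TPM for slc24a5. Without low-Wnt replicate 3, the log2 fold change was 0.81 for pmela (SE 0.13, limma adjusted p = 0.0103) and 1.53 for slc24a5 (SE 0.33, limma adjusted p = 0.0258). With 6 libraries it was 1.76 for pmela (SE 0.71, limma adjusted p = 0.320) and 1.90 for slc24a5 (SE 0.52, limma adjusted p = 0.153).

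pnp4a (ENSDARG00000057575) encodes a purine nucleoside phosphorylase and marks iridophores and their progenitors. It had 105, 89.5 and 84.5 TPM in the high-Wnt libraries, compared with 38.6, 42.6 and 11.2 TPM in the low-Wnt libraries. The populations did not overlap, and low-Wnt replicates 1 and 2 differed by a factor of 1.11. The log2 fold change was 1.76 (SE 0.51, limma adjusted p = 0.175) with 6 libraries and 1.17 (SE 0.15, limma adjusted p = 0.00387) without low-Wnt replicate 3, where the ratio of mean TPM was 2.29.

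gch2 encodes the GTP cyclohydrolase of pteridine synthesis in xanthophores and was the most abundant of the 11 rows in the other 5 libraries. It was at 2069, 1801 and 1602 TPM in high-Wnt cells and at 1090.3, 1544 and 117 TPM in low-Wnt cells (ENSDARG00000099101). The populations did not overlap, but high-Wnt replicate 3 and low-Wnt replicate 2 were close. The log2 fold change was 1.64 (95% interval -0.28 to 3.55, limma adjusted p = 0.416) with 6 libraries and 0.48 (95% interval 0.06 to 0.91, limma unadjusted p = 0.0304, adjusted p = 0.118) without low-Wnt replicate 3. gch2 was therefore not DE in either fit.

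**Figure D2:**
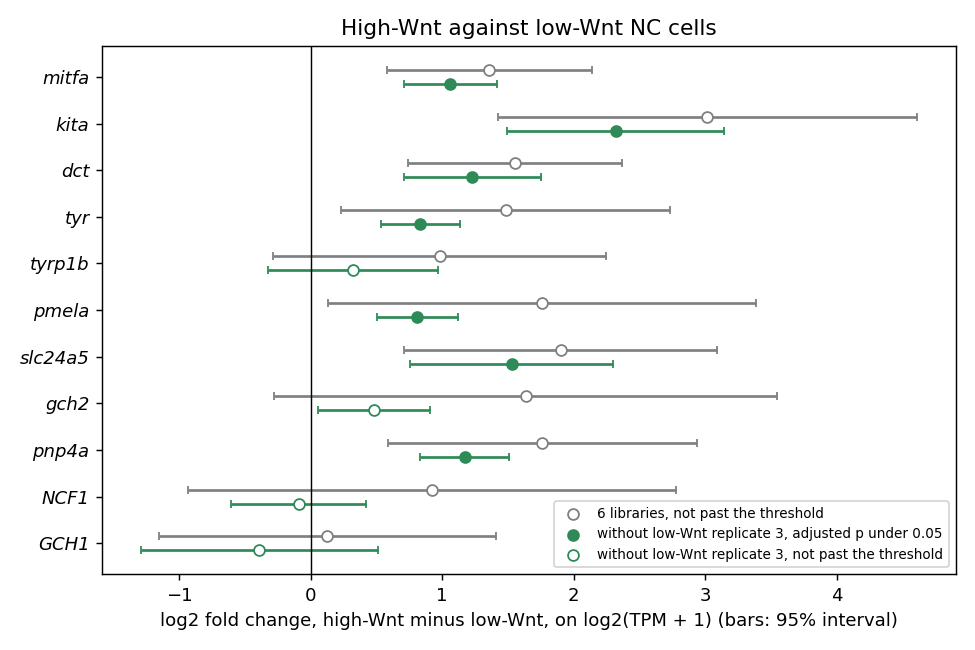
Log2 fold change of each gene (high-Wnt minus low-Wnt on the log2(TPM + 1) scale) with its 95% interval from limma, in grey for 6 libraries and in green without low-Wnt replicate 3, with filled points for DE genes. All points of the 6-library fit are open, and the 7 filled points, from 0.81 for pmela to 2.32 for kita, belong to the fit without low-Wnt replicate 3.

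The 2 identifiers given under another gene's name did not separate the populations. NCF1, a subunit of the NADPH oxidase of phagocytes, was at 23.3, 32.5 and 26.8 TPM in high-Wnt cells and at 35.7, 23.7 and 2.64 TPM in low-Wnt cells. The populations overlapped, and its log2 fold change was 0.93 (95% interval -0.93 to 2.78, limma adjusted p = 0.583) with 6 libraries and -0.09 (95% interval -0.60 to 0.42, limma adjusted p = 0.811) without low-Wnt replicate 3. Of 7 other phagocyte genes, listed after this identity was seen, 0 were DE in either fit. Of all tested genes, 0.367% were DE with 6 libraries and 12.7% without low-Wnt replicate 3. lyz, which encodes lysozyme, was at 277 to 421 TPM in the other 5 libraries and at 832 TPM in low-Wnt replicate 3. GCH1, the other GTP cyclohydrolase, was at 2.66, 2.00 and 1.93 TPM in high-Wnt cells and at 1.72, 5.37 and 0.43 TPM in low-Wnt cells. Its populations overlapped too, with a log2 fold change of 0.13 (95% interval -1.16 to 1.41, limma adjusted p = 0.909) with 6 libraries and -0.39 (95% interval -1.29 to 0.51, limma adjusted p = 0.536) without low-Wnt replicate 3.

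Because low-Wnt replicate 3 was low for most genes, the genes were also ranked by TPM within each library among the 14163 tested genes, which does not depend on the scale of a library. Ranks do depend on how many genes a library detects, which was fewest in low-Wnt replicate 3 (9230). GCH1 ranked 11040 there at 0.43 TPM, but 12020 in low-Wnt replicate 1 at 1.72 TPM. The part of lost detection in the ranks of low-Wnt replicate 3 was not tested. mitfa ranked 641, 703 and 731 in high-Wnt replicates 1, 2 and 3, and 1684, 1288 and 1571 in low-Wnt replicates 1, 2 and 3. By rank, low-Wnt replicate 3 thus lay between the other low-Wnt libraries for mitfa, and the same held for slc24a5, which ranked 2460, 3211 and 3063 in high-Wnt cells and 7619, 4691 and 4941 in low-Wnt cells. For the other 7 genes by name, low-Wnt replicate 3 had the lowest abundance by rank of the 3 low-Wnt libraries. kita ranked 2802, 3626 and 3370 in high-Wnt cells and 10599, 6923 and 10900 in low-Wnt cells. The ranks in high-Wnt cells were all above those in low-Wnt cells for 7 of the 9 genes by name, and for 13.2% of the tested genes, while 13.9% of the tested genes had the reverse order. The exceptions were tyrp1b, which ranked 213 in low-Wnt replicate 2 against 194 to 250 in high-Wnt cells, and gch2, which ranked 110 in low-Wnt replicate 2 against 95 to 115. pmela ranked 388 to 400 in high-Wnt cells and 796, 627 and 2247 in low-Wnt replicates 1, 2 and 3, so that low-Wnt replicate 3 stood farther from the other low-Wnt libraries for pmela than for mitfa.

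**Figure D3:**
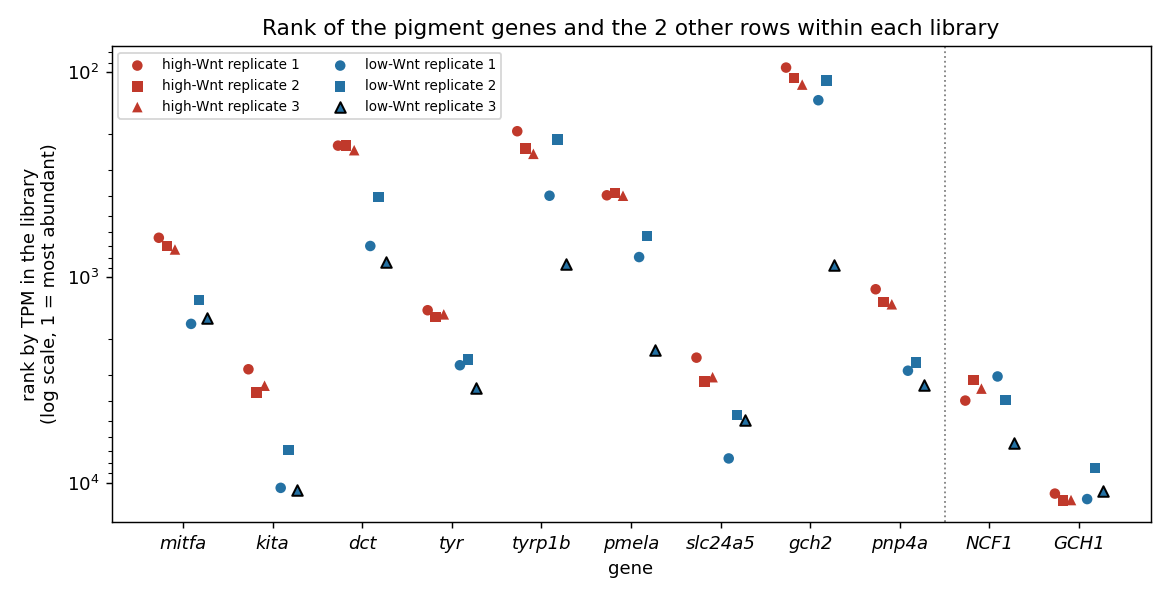
Rank by TPM within each library among the 14163 tested genes (inverted log scale, 1 is the most abundant gene), with 1 point per library and low-Wnt replicate 3 outlined. For mitfa the high-Wnt libraries rank between 641 and 731 and the low-Wnt libraries between 1288 and 1684, with low-Wnt replicate 3 inside the low-Wnt range.

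In high-Wnt cells, mean TPM fell in the order gch2, tyrp1b, dct, pmela, mitfa, pnp4a, tyr, slc24a5, kita, NCF1 and GCH1. Neighbors did not overlap between libraries except tyrp1b with dct, slc24a5 with kita, and kita with NCF1. In the mean of low-Wnt replicates 1 and 2, the first 5 genes kept this order, while tyr (42.9 TPM) and pnp4a (40.6 TPM) were close together and NCF1 (29.7 TPM) was above slc24a5 (12.7 TPM) and kita (5.88 TPM). In low-Wnt replicate 3, dct (123 TPM), tyrp1b (119.6 TPM) and gch2 (117 TPM) were at nearly the same level, whereas gch2 was at 3.06 times the tyrp1b level in high-Wnt cells by mean TPM.

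Among the genes whose profile over the 6 libraries was most like that of mitfa were FZD3 (ENSDARG00000021664, Pearson's r = 0.998) and LUM (ENSDARG00000045580, r = 0.997) on the log2(TPM + 1) scale. FZD3 encodes a Wnt receptor and LUM a proteoglycan of the extracellular matrix. FZD3 was at 3.66, 3.26 and 3.11 TPM in high-Wnt cells and at 1.28, 1.92 and 0.72 TPM in low-Wnt cells. LUM was at 10.1, 9.48 and 8.89 TPM in high-Wnt cells and at 2.64, 3.43 and 0.88 TPM in low-Wnt cells. Both were picked by their correlation with mitfa over these libraries, so sharing its order of libraries follows largely from that choice. These values describe 6 libraries that fall into populations, with low-Wnt replicate 3 apart, and 49 genes had r above 0.99. Among the described rows, kita (r = 0.996) and dct (r = 0.993) were the most similar to mitfa, and GCH1 (r = 0.504) the least.

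Other genes of the pigment lineages were taken from lists of 15 genes for melanophores, 9 for xanthophores and 8 for iridophores. Whether each listed gene is limited to that cell type was not tested. Of the melanophore genes, 6 were DE and higher in high-Wnt cells without low-Wnt replicate 3, and all 6 were among the pigment genes described above. None of the other 8 genes of the melanophore list beside tyrp1b (tyrp1a, slc45a2, oca2, mlpha, trpm1b, gpr143, tspan36 and tfec) was DE in limma, where 7.17% of all tested genes were DE and higher. Their median log2 fold change was 0.32, where that of all tested genes was 0.05, and 6 of the 8 estimates were above 0. tyrp1a came closest to the threshold (log2 fold change 0.49, limma adjusted p = 0.0517). With 6 libraries its estimate was 0.68 (limma adjusted p = 0.358). The estimates below 0 were those of mlpha (-0.34) and tfec (-0.13). Of the 9 xanthophore genes, 1 was DE and higher, pts, which encodes the pteridine synthesis enzyme 6-pyruvoyltetrahydropterin synthase. It was at 135, 157 and 152 TPM in high-Wnt cells and at 62.5, 54.5 and 14.7 TPM in low-Wnt cells, with no overlap, and without low-Wnt replicate 3 it was higher in high-Wnt cells by a log2 fold change of 1.32 (SE 0.14, limma adjusted p = 0.0018), while the 6-library estimate was 1.96 (limma adjusted p = 0.151). The PAX7 row ENSDARG00000070818 (a transcription factor of xanthophores, log2 fold change 0.38, limma adjusted p = 0.084) and slc2a15b (0.47, limma adjusted p = 0.0923) did not pass. Their 6-library estimates were 1.17 and 1.18 (limma adjusted p = 0.437 and 0.391). Of the 6 iridophore genes matched, pnp4a alone was DE, and ltk, a receptor tyrosine kinase needed for iridophores, did not pass (log2 fold change 1.00, limma adjusted p = 0.144, and 1.199, limma adjusted p = 0.235, with 6 libraries). ltk was low throughout, at 2.31, 2.20 and 1.92 TPM in high-Wnt cells and at 1.48, 0 and 0.03 TPM in low-Wnt cells. Low-Wnt replicates 1 and 2 thus disagreed. With 6 libraries, 0 genes of the melanophore, xanthophore and iridophore lists were DE in limma, where 0.367% of all tested genes were.

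The study drew up a list of pigment lineage genes from transcription factors found in its single-cell data, together with known markers. The list held 16 genes, mostly transcription factors. Without low-Wnt replicate 3, 2 of them were DE and higher and 2 DE and lower in high-Wnt cells. Of all genes tested in that fit, 7.17% were DE and higher and 5.57% DE and lower. Besides mitfa, mbnl2, which encodes a splicing regulator, was at 85.8, 80.3 and 79.1 TPM in high-Wnt cells and at 13.2, 41.3 and 3.93 TPM in low-Wnt cells. mbnl2 was higher in high-Wnt cells without low-Wnt replicate 3 (log2 fold change 1.76, SE 0.38, limma adjusted p = 0.0259), and with 6 libraries its estimate was 2.53 (limma adjusted p = 0.161). The lower genes were znf703 and znf503, which encode related zinc finger proteins. znf703 was at 27.3, 31.8 and 30.7 TPM in high-Wnt cells and at 67.0, 68.2 and 8.85 TPM in low-Wnt cells, and low-Wnt replicate 3 was thus the lowest library. The log2 fold change of znf703 was -0.22 with 6 libraries (limma adjusted p = 0.878) and -1.15 without low-Wnt replicate 3 (SE 0.14, limma adjusted p = 0.00368). znf503 was at 79.6, 86.0 and 83.1 TPM in high-Wnt cells and at 149.9, 178 and 21.6 TPM in low-Wnt cells, again with low-Wnt replicate 3 lowest. Its log2 fold change was -0.015 with 6 libraries (limma adjusted p = 0.991) and -0.97 without low-Wnt replicate 3 (SE 0.13, limma adjusted p = 0.00502). The median of the 16 genes was 0.21, and that of all tested genes 0.05.

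**Figure D4:**
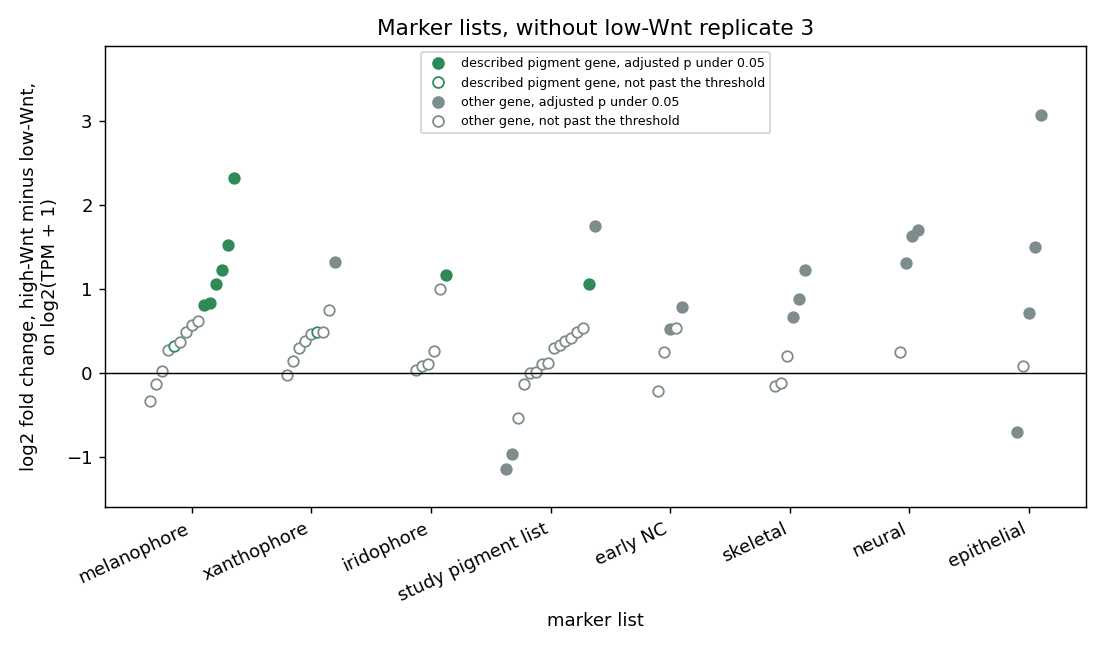
Log2 fold change without low-Wnt replicate 3 (high-Wnt minus low-Wnt on the log2(TPM + 1) scale) of each gene in 8 marker lists, with the described pigment genes in green, other genes in grey and DE genes filled. In the melanophore list the 6 filled points are all described pigment genes, from 0.81 to 2.32, and the epithelial list spans from -0.71 for tp63 to 3.07 for krt5.

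Some markers of other cells also differed between the populations, and others did not. The calls given here are those without low-Wnt replicate 3, where 7.17% of all tested genes were DE and higher and 5.57% DE and lower. Of 5 early NC genes matched, tfap2a (log2 fold change 0.78, limma adjusted p = 0.00796) and foxd3 (0.52, limma adjusted p = 0.0398) were DE and higher in high-Wnt cells. sox10 (0.25, limma adjusted p = 0.330), crestin (0.53, limma adjusted p = 0.0574) and snai1b (-0.22, limma adjusted p = 0.640) did not pass. With 6 libraries the estimates were 1.78 for tfap2a, 1.05 for foxd3, 0.83 for sox10, 1.14 for crestin and 0.024 for snai1b. The 5 genes summed to 582 to 704 TPM in high-Wnt cells, and to 473, 472 and 124 TPM in low-Wnt cells. Of 6 skeletal genes matched, 3 were higher: a PRRX1 row (ENSDARG00000042027), twist1a and barx1. Their estimates were 1.23, 0.89 and 0.67, against 1.97, 0.61 and 0.68 with 6 libraries. hand2 (0.20), the other PRRX1 row (ENSDARG00000033971, -0.12) and dlx5a (-0.15) did not pass, against 0.59, 0.62 and -0.19 with 6 libraries. twist1a in low-Wnt replicate 3 (336 TPM) was above high-Wnt replicate 1 (289 TPM). The skeletal genes summed to 529 to 655 TPM in high-Wnt cells and to 405 to 476 TPM in low-Wnt cells. Of 4 neural genes matched, sox2, elavl3 and neurog1 were higher, with estimates of 1.63, 1.31 and 1.71, against 2.15, 1.72 and 1.25 with 6 libraries. Their summed level with neurod1 was 83.1 to 91.0 TPM in high-Wnt cells and 27.5, 40.7 and 14.96 TPM in low-Wnt cells. Of 5 epithelial genes, krt4, krt5 and cdh1 were higher, with estimates of 1.498, 3.07 and 0.71, against 2.38, 3.81 and 1.39 with 6 libraries. tp63 was lower (-0.71, limma adjusted p = 0.0283), but its 6-library estimate was 0.070 (limma adjusted p = 0.958). epcam, the remaining epithelial gene, did not pass (0.083, limma adjusted p = 0.709, against 0.12 with 6 libraries). It was at 154 to 166 TPM in high-Wnt cells and at 136, 169 and 141 TPM in low-Wnt cells. The epithelial genes' summed level was 1091 to 1367 TPM in high-Wnt cells and 490.1, 632 and 206 TPM in low-Wnt cells. In high-Wnt cells most of this sum was krt4, at 816 to 1050 TPM. The otic gene oc90 was lower (log2 fold change -1.32, limma adjusted p = 0.00814, against -0.65, limma adjusted p = 0.590, with 6 libraries) and olig2, a marker of oligodendrocyte progenitors, was higher (1.33, limma adjusted p = 0.0255, against 1.36, limma adjusted p = 0.0553, with 6 libraries). olig2 was at 1.53 to 1.75 TPM in high-Wnt cells, at 0.06 TPM in low-Wnt replicates 1 and 2 and listed at 0 in low-Wnt replicate 3. It thus passed the filter of 1 TPM through the high-Wnt libraries alone, and no conclusion is drawn from its p-values. oc90 was at 24.8 to 32.9 TPM in high-Wnt cells and at 59.2, 84.8 and 16.9 TPM in low-Wnt cells. With 6 libraries, 0 genes of these lists or of the study's pigment list were DE in limma, where 0.367% of all tested genes were. The part of these other cells in the differences of the pigment genes was not tested.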

How the data were processed

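The deposited values are TPM per Ensembl gene, which the authors obtained from Smart-seq2 reads with STAR and RSEM on GRCz11. The edgeR test on counts that the authors describe was not repeated, since TPM values are not counts. Here limma 3.58.1 (R 4.3.3) was fitted to log2(TPM + 1) with population as the only term and an intensity trend. The filter required 1 TPM in as many libraries as the smaller population held, 3 or, with a library left out, 2, and all 11 described rows passed it. The pseudocount of 1 understates changes of low genes. Python 3.11.15 with pandas 2.3.3 and matplotlib 3.10.9 made the tables and plots. The fits were run on simulated data with independent noise for each gene, where the median estimate of the changed genes was checked. The simulation had no library-wide shift like that of low-Wnt replicate 3, so it could not test the fits on such a library.

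Gene names came from a table that matched 28988 of the 32057 identifiers, often by human orthologue. A list gene that could not be told from its paralogue was left out unless the list held both paralogues. The PAX7 and PRRX1 rows were kept in this way, and which row is which paralogue is not known here. The text names the described genes, up to 4 genes a list by the smallest unadjusted p-value without low-Wnt replicate 3, and the 3 genes most correlated with mitfa, of which 1 is not reported here. lyz, snai1b, hand2, epcam, the other PRRX1 row and the other genes of the melanophore list were named outside this rule, after their values were seen. Members and lists were chosen with earlier results of these data known. Promoter motifs were not analysed here.

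Alternatives were a pseudocount of 0.1, no filter, quantile normalization, median centring, no trend, sample quality weights, a replicate block, each library left out, and 5 of these combined with leaving out low-Wnt replicate 3. NCF1, GCH1 and the count by name were added after seeing the data.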

Additional observations from a re-analysis of the deposited data

How the results depend on the processing

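The number of DE genes depended on low-Wnt replicate 3. With 6 libraries, 0 of the 9 identifiers were DE, where 0.367% of all tested genes were. The number was also 0 with a pseudocount of 0.1, no filter, median centring or no trend. In these fits 0.12%, 0.0171%, 0.325% and 0.0918% of all tested genes were DE, so counts of 0 say little about the pigment genes in particular. Quantile normalization gave 3 of the 9, where 1.25% of all tested genes were DE, and sample quality weights gave 6 (7 by name), where 29.1% were. Across the 6 fits that each left out a library, the number ranged from 0 to 6 (0 to 7 by name), and in the 5 fits that kept low-Wnt replicate 3 limma called 0% of the 14699 to 14805 tested genes, so their 0 says nothing about the pigment genes in particular. Combined with leaving it out, a pseudocount of 0.1, quantile normalization and median centring each gave 6 (7 by name), where 11.2%, 12.3% and 14.3% of all tested genes were DE, and no filter or no trend gave 5 (6 by name), where 4.49% and 9.06% were. With the replicate block, 2 were DE, where 1.19% of all tested genes were. For the replicate numbers 1, 2 and 3, the deviations of the same-numbered libraries from their population mean had r = 0.03, -0.01 and 0.14. Low-Wnt replicate 3 weighs on the mean from which all low-Wnt deviations were taken, so these values cannot decide whether the numbers pair the libraries. No source used here states a pairing, and the main fit has none. Fits without low-Wnt replicate 3 rest on 2 low-Wnt libraries, and the cause of these differences was not tested.

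Estimates above 0 under all 18 alternatives were those of mitfa (0.76 to 1.61), kita (1.87 to 3.69), dct (0.96 to 1.93), tyr (0.77 to 1.83), pmela (0.75 to 2.32), slc24a5 (1.09 to 2.39), pnp4a (1.09 to 2.09) and gch2 (0.31 to 2.34), although gch2 passed the threshold in none. tyrp1b passed in none either and turned to -0.042 with sample quality weights. NCF1 ranged from -0.091 to 1.58 and GCH1 from -0.39 to 0.69 over the fits that each left out a library. Without low-Wnt replicate 3, NCF1 was at -0.091, also with no filter or no trend, at -0.093 with a pseudocount of 0.1, at -0.031 with quantile normalization and at -0.15 with median centring. GCH1 turned to -0.39 without that library, also with no filter or no trend, to -0.47 with a pseudocount of 0.1, -0.56 with quantile normalization and -0.45 with median centring. With 6 libraries GCH1 turned to -0.46 with quantile normalization, -0.47 with median centring and -0.80 with sample quality weights.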
